A study of Mus musculus with 56 samples.

Results

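The transcripts of 9 genes of nitrogen disposal and amino acid breakdown, Cps1, Otc, Ass1, Asl, Glul, Gls2, Hal, Tat and Sds, were followed in 3 tissues of mice gavaged with chrysene (Chr), a polycyclic aromatic hydrocarbon. The probes of these genes were found by the RefSeq accession that each array spot carries. They are 9 of 20018 genes that could be named on the array in this way. Where a gene had several probes, the one with the highest mean signal in the tissue was used. Comparisons between tissues used the probe with the highest mean signal over the 3 tissues. The animals were adult males of the transgenic MutaMouse strain, 14 weeks old at collection, that received olive oil alone (D0) or olive oil with 17.5 (D1), 50 (D2) or 150 (D3) mg of Chr per kg of body weight per day for 28 days, with collection 72 hours after the final gavage. Every group, the controls included, carries the transgene and received the olive oil vehicle. From D0 to D3, lung was measured in 5, 5, 3 and 5 mice, and the other tissues in 5, 5, 4 and 5 mice. The 56 arrays came from 19 mice, numbered from 1 to 20 in the labels. Each mouse contributed its own array for each tissue, except D2 mouse 11, which has no lung array. Each value below is a log2 ratio of the tissue RNA (Cy5) to a universal mouse reference RNA (Cy3), so that 0 means a signal equal to the reference after normalization. Levels of different probes were not compared with each other.

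The urea cycle is the liver's route for turning toxic ammonia into urea. Cps1 and Otc work in the mitochondria, where they make carbamoyl phosphate and citrulline, and Ass1 and Asl carry the cycle on in the cytosol. Hepatocytes near the portal vein run the cycle and express Gls2, the liver glutaminase that frees ammonia from glutamine. Hepatocytes around the central vein express Glul, glutamine synthetase, which captures the ammonia that is left. Hal removes ammonia from histidine, Tat begins tyrosine breakdown and is a classic target of glucocorticoids and glucagon, and Sds converts serine to pyruvate for gluconeogenesis.

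The share of spots well above background was 34.5% to 46.3% on the liver arrays, 49.0% to 56.7% on the lung arrays and 18.9% to 51.7% on the forestomach arrays. The forestomach arrays differed by slide, with 40.4% to 51.7% on slide 1, 24.6% to 34.9% on slide 2 and 18.9% to 30.1% on slide 3. The 9 slides held 1 tissue each. The tissue labels were checked against marker genes. In liver, the 6 hepatocyte markers (Alb, Apoa1, Ttr, Fgb, Apoc3 and Serpinc1) were well above background on all 19 arrays, and their mean ratio was 6.97 to 7.33. In lung, the 4 alveolar type 2 markers were above background on all 18 arrays. Among the lung arrays, those of D3 mice 17 and 19 stood apart, with means of 4.44 and 4.98 over 7 keratinocyte genes and of 5.47 and 5.74 over 5 skeletal muscle genes, against at most -0.22 and 0.49 on the others. In forestomach, 6 of the 7 keratinocyte markers were above background on all 19 arrays. The mean of the 8 measured genes of the glandular stomach, the part next to the forestomach, was 0.29 to 2.33 on 9 forestomach arrays and 5.62 to 7.17 on the other 10.

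The 5 members with a promoter in the reference table fell at different places in the range of CG content. All 5 are shown, to let that range be read from the letters; no relation to the levels was tested. They are the stretches of 250 bases upstream of the start of Ass1 (chr2:31470020-31470269, plus strand), Glul (chr1:153899679-153899928, plus strand), Hal (chr10:93488518-93488767, plus strand), Tat (chr8:109990186-109990435, plus strand) and Otc (chrX:10252055-10252304, plus strand). The sequences are from RefSeq (GRCm38.p6) and run 5′ to 3′, with each CG in capitals.
Ass1: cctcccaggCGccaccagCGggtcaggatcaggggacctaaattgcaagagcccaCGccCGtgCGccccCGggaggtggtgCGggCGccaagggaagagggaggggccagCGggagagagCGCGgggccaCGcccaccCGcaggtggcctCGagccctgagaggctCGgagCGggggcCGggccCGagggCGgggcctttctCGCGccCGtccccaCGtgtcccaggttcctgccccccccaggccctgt
Glul: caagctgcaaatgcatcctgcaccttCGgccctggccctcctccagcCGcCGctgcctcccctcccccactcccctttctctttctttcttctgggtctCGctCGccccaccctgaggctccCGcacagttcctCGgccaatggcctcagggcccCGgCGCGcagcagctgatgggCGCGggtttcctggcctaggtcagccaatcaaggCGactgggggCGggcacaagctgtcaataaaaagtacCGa
Hal: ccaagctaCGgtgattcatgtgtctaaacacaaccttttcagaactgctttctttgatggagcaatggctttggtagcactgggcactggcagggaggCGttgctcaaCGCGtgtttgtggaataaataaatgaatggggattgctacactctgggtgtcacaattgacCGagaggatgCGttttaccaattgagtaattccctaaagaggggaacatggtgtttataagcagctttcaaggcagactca
Otc: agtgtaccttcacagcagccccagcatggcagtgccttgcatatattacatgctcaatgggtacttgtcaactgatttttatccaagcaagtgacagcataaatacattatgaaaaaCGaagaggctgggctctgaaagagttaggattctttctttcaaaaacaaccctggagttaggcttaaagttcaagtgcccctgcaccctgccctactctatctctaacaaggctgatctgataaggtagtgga
Tat: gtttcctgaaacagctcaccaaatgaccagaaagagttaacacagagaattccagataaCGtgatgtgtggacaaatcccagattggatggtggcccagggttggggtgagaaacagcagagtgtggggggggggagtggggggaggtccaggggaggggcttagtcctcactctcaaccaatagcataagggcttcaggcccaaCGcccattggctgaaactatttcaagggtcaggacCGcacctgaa
The Ass1 stretch holds 23 CG dinucleotides and the Glul stretch 15, against a median of 6 over 32851 such promoter windows. The Otc stretch holds 1 and the Tat stretch 3, while that of Hal holds 6. Of all windows, 88.0% hold no more CG than Ass1, 74.6% no more than Glul, 53.7% no more than Hal, 37.8% no more than Tat and 18.8% no more than Otc. The letters CCAAT were searched on both strands and lie in the Glul, Hal and Tat stretches and in 33.8% of all windows. TATAAA was found in the Hal stretch alone of the 5, and in 12.4% of all windows. In Hal it lies on the strand opposite to the printed one, where the letters read TTTATA. TTGCNNAA was likewise found for Hal and in 9.6% of windows. These matches are descriptions of the letters only. The promoters of Cps1, Asl, Gls2 and Sds were not analysed here.

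In control mice, all 9 members were higher in liver than in lung and in forestomach. Both limits of the study were applied, an adjusted p (Benjamini-Hochberg) no higher than 0.05 and a change of 1.5-fold or more, with limma as the test. Past both limits, 9 of 9 members were higher in liver than in lung, where 23% of the 29162 probes tested were higher and 27.8% lower. Against forestomach 9 of 9 were higher in liver, where 24.3% of 22863 probes were higher and 24.4% lower. These counts include members that entered the test through liver alone, where they are high, and whose direction was thereby fixed. Those were Cps1, Otc and Sds in both comparisons, and also Gls2, Hal and Tat against forestomach. The members well above background on at least 3 control arrays of each tissue numbered 6 against lung (Ass1, Asl, Glul, Gls2, Hal and Tat) and 3 against forestomach (Ass1, Asl and Glul). All 6 were higher in liver than in lung, with a median difference of 5.47 (log2), where 27.5% of the 20349 probes measured in both tissues were higher, 25.7% were lower and their median was 0.08. All 3 were higher in liver than in forestomach, with a median of 3.76, where 21% of 13565 probes were higher, 31.2% were lower and the median was -0.15. In whole tissue, fewer cells of a type and less RNA per cell cannot be told apart. Tissue and slide also cannot be told apart, since no slide held 2 tissues. Over these members measured in both tissues, the counts with the slide as a random block were again 6 and 3, and with median centring they were 5 and 3, Glul being the member that no longer passed against lung. Median centring also moved the median over all probes tested, to -0.76 against lung and 0.40 against forestomach.

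The mitochondrial enzymes were bright in liver and at or near background elsewhere. The D0 mean of Otc was 8.73 ± 0.18 in liver and 0.26 ± 0.23 in lung (SD, n = 5 each), but its probe was well above background on 1 of the 5 control lung arrays. The measured difference of 8.47 (adjusted p = 6.2e-18 by limma) therefore rests on a lung value near the floor. In forestomach the Otc signal was not well above background on any of the 19 arrays, and the liver signal was at least 249-fold higher. Cps1, the first enzyme of the cycle, was above background on 19 of 19 liver arrays and on 0 of the 18 lung and 19 forestomach arrays. No fold is given for Cps1 against these tissues. The bounds given here for Otc and below for Sds set the mean normalized Cy5 signal in liver against the lowest signal called well above background on the dim arrays, and they are open to dye bias because no dyes were swapped.

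The cytosolic enzymes were measured in all 3 tissues. Ass1, argininosuccinate synthetase, had D0 means of 4.34 ± 0.15 in liver, -0.73 ± 0.18 in lung and -0.76 ± 0.51 in forestomach (SD, n = 5 each). The lung and forestomach levels of Ass1 differed by 0.03 (adjusted p = 0.90 by limma), which is within the spread of the mice. When arrays were centred on their medians, Ass1 was higher in lung past both limits. Asl, argininosuccinate lyase, had D0 means of 3.21 ± 0.05, -1.09 ± 0.01 and -0.55 ± 0.16 in the same order. Asl was 4.29 higher in liver than in lung and 3.76 higher than in forestomach. Its lung level was 0.53 below that of forestomach (adjusted p = 5.0e-05 by limma), which stayed under the fold limit, and the sign turned to 1.29 when arrays were centred on their medians. With that centring the median over all probes was 1.19 higher in lung.

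Glul was above the reference on all 56 arrays, with values from 0.45 to 5.67. Its D0 means were 5.21 ± 0.23 in liver, 3.39 ± 0.43 in lung and 2.81 ± 1.61 in forestomach (SD, n = 5 each). The liver level of Glul was 1.82 above lung (adjusted p = 0.0081 by limma) and 2.40 above forestomach (adjusted p = 0.0014). With median centring the difference from lung was 0.78 and no longer passed (adjusted p = 0.45). The median over all probes moved to -0.76 in that setting. Gls2 had D0 means of 4.60 ± 0.18 in liver, -2.63 ± 0.28 in lung and -1.05 ± 0.67 in forestomach. Gls2 was 1.58 lower in lung than in forestomach (adjusted p = 6.3e-05 by limma), and 0.15 higher with median centring. The median over all probes was then 1.19 higher in lung. Both were above background on 18 of 18 lung arrays, but Gls2 on 2 of the 5 control forestomach arrays.

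The amino acid-degrading members were dim outside liver, and the mean ratios of Hal and Tat lay near 0 there. Hal, histidase, had D0 means of 6.06 ± 0.10 in liver, 0.20 ± 1.31 in lung and 0.31 ± 0.46 in forestomach. Single control lungs ran from -0.91 to 1.99. Tat had D0 means of 6.40 ± 0.08, 0.20 ± 0.10 and 0.19 ± 0.26. On the lung arrays the reference signal of Tat was itself well above background on 6 of 18, so its lung ratio lies near the floor of both channels. Sds was 5.50 ± 0.29 in control liver and was well above background on 0 of 18 lung and 0 of 19 forestomach arrays. The liver signal of Sds was at least 38.0-fold higher than in lung and at least 36.3-fold higher than in forestomach. Lung and forestomach differed past both limits for 1 of the 6 members tested between them, Gls2, with 22% of 28338 probes higher in lung and 18.9% lower. The forestomach level of Gls2 in this call was above background on 2 of 5 arrays. With median centring 3 members passed and Gls2 did not, where 16887 probes passed.

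The Cy3 channel held the same reference RNA on every array. Yet its mean signal was higher on the liver arrays than on the lung and forestomach arrays for all 9 members. The mean Cy3 signal of the Tat probe was 438 on liver arrays and 58.0 on lung arrays, and that of Hal was 390 and 117. The median over all probes was 82.1 and 61.7. None of the 9 probes was saturated in Cy5 on any array. The part of this difference in the tissue ratios was not tested.

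**Figure D1:**
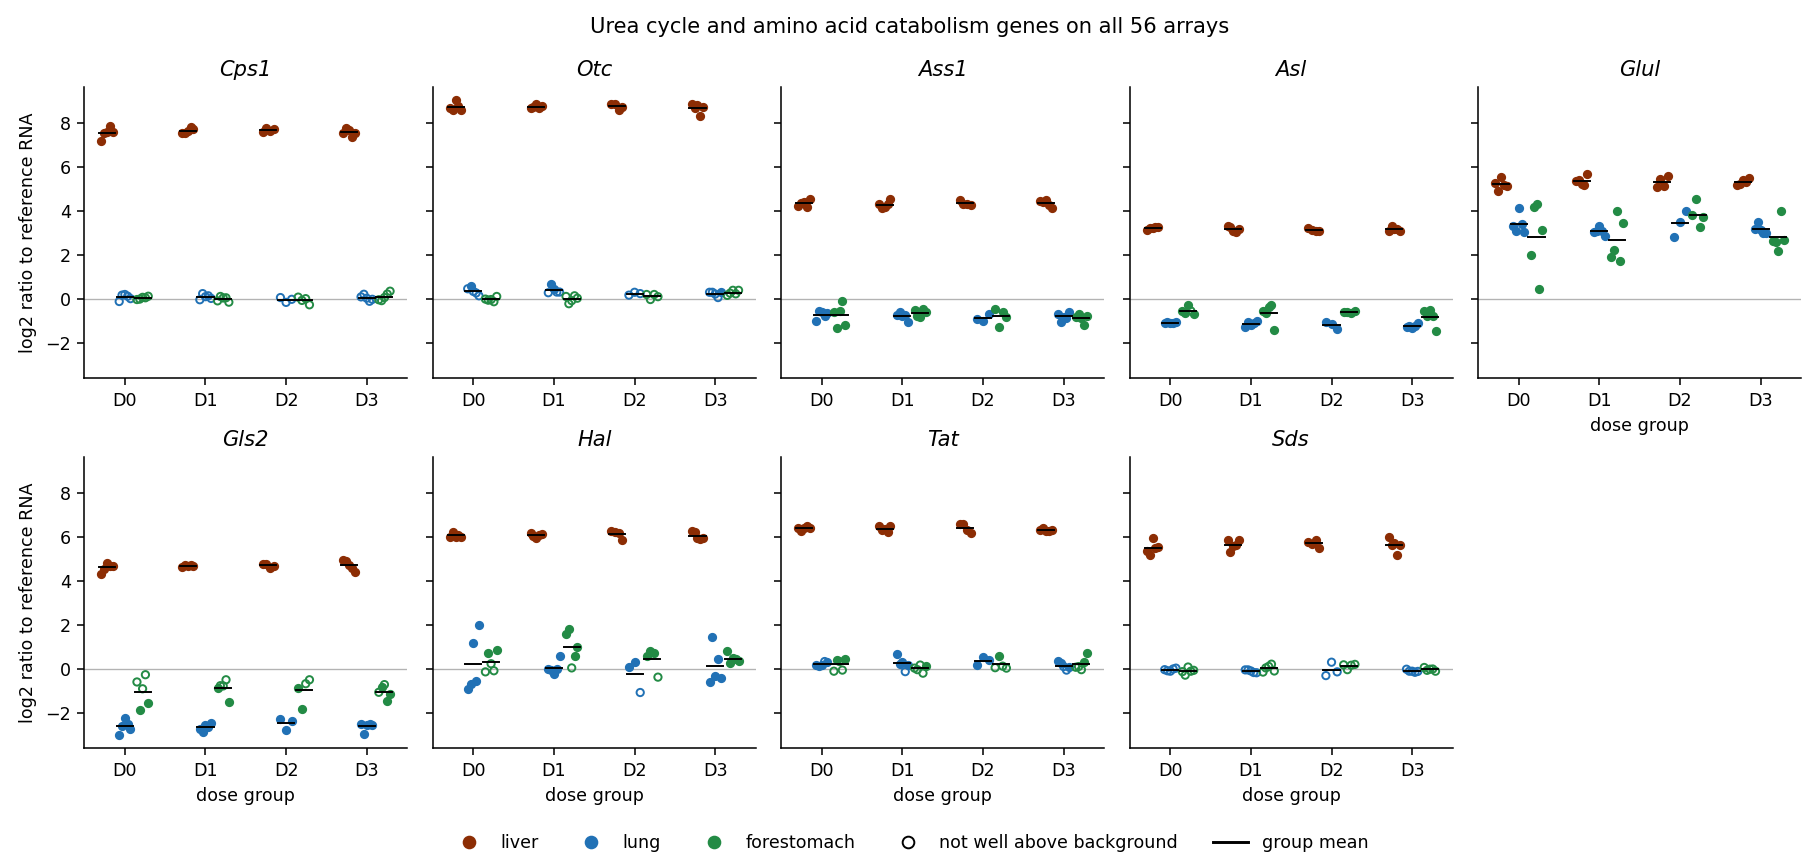
Log2 ratio to the reference RNA of each of the 9 members on all 56 arrays, by tissue and dose group; each point is 1 array, and open symbols are spots not well above background. In liver the points of each gene lie in a narrow band at all doses, while Glul in forestomach runs from 0.45 to 4.53 and Hal in lung from -1.09 to 1.99.

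Related genes gave the surroundings of these 9. Of the genes of 10 pathway lists, 63 were tested between liver and lung at D0, with 58 higher in liver and 2 lower, and 64 between liver and forestomach, with 59 higher and 2 lower. Of these, 16 and 28 were above background on enough control arrays of 1 tissue only, which fixes their direction. Of the 47 genes measured in both liver and lung, 42 were higher in liver and 2 lower, where 27.5% and 25.7% of the probes measured in both were. Of the 36 measured in both liver and forestomach, 32 were higher and 1 lower, against 21% and 31.2% of probes. With median centring the counts higher in liver, over all listed genes tested, were 46 and 57. Among genes of aromatic and tryptophan breakdown, all 6 measured in both liver and lung (Fah, Gstz1, Kynu, Kmo, Haao and Afmid) were higher in liver, as were both measured in liver and forestomach, Fah and Gstz1. None of the 3 genes of histidine breakdown after Hal (Uroc1, Amdhd1 and Ftcd) was measured in a second tissue at D0. Sdsl, which is related to Sds, was higher in liver by 3.57 against lung and 1.74 against forestomach.

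No member changed with Chr in liver. At D1, D2 and D3, limma placed 0 of the 9 members past both limits, and at each dose 0% of the 24763 probes tested passed. With p limited to 0.05 and no adjustment, 0 of 9 members were called at any dose, where 3.6%, 3.78% and 4.78% of probes were called at D1, D2 and D3. No member had dosed and control livers that did not overlap, as 0.481%, 1.24% and 0.739% of probes had. The 9 members were well above background on 19 of 19 liver arrays. All fold changes had a 95% interval that lay within the 1.5-fold limit in both directions. The median log2 fold change of the members was 0.02, 0.07 and 0.01 at the 3 doses, where that of all probes was 0.00, 0.00 and -0.01.

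The urea cycle enzymes varied about as much as a typical probe over the 19 livers, and Asl less. The SD within dose groups was 0.16 for Cps1, 0.16 for Otc and 0.15 for Ass1, where the median SD over all probes was 0.16. Cps1 ranged from 7.18 to 7.84 with a median of 7.59. Otc ranged from 8.30 to 9.02 with a median of 8.73. Ass1 ranged from 4.11 to 4.55 with a median of 4.32. Asl was the steadiest member in liver, with a range from 3.04 to 3.30 and an SD within dose groups of 0.08.

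The glutamine enzymes also overlapped between doses. Glul was 5.27, 4.89, 5.53, 5.19 and 5.15 in the D0 mice and 5.16, 5.23, 5.42, 5.31 and 5.49 in the D3 mice. The D3 mean of Glul was 0.12 above D0 (SE 0.12, 95% interval -0.14 to 0.37), with 4 of 5 livers above the D0 mean. Gls2 ranged from 4.32 to 4.93 over the 19 livers, and its D3 difference was 0.10 (SE 0.09, 95% interval -0.10 to 0.30).

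Among the catabolic enzymes, Tat and Sds lay farthest from D0 at the highest dose. Tat was 6.42, 6.26, 6.42, 6.48 and 6.42 in the D0 livers and 6.32, 6.39, 6.26, 6.25 and 6.31 in the D3 livers. All 5 D3 livers were below the D0 mean of Tat, but the groups overlapped, and the difference was -0.09 (SE 0.08, unadjusted p = 0.25, adjusted p = 1.00 by limma). Sds was the most variable member in liver, with an SD within dose groups of 0.25. Its values were 5.33, 5.18, 5.95, 5.50 and 5.55 in D0, 5.86, 5.31, 5.58, 5.61 and 5.86 in D1, 5.74, 5.69, 5.86 and 5.49 in D2, and 5.97, 5.64, 5.70, 5.18 and 5.63 in D3. The largest member difference in liver was that of Sds at D2, 0.20 (SE 0.16, 95% interval -0.13 to 0.52). Hal ranged from 5.86 to 6.25, and its D3 difference was -0.01 (SE 0.09).

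A linear trend over the 4 dose steps gave 0 of 9 members past both limits in liver, with 0% of all probes called. The largest fitted change from D0 to D3 was that of Sds, 0.12 (SE 0.14, adjusted p = 0.98 by limma). In simulated data with the spread of these livers, 99% of probes with a log2 change of 1 were recovered at D3, against 93% with the spread of the lungs and 70% with that of the forestomachs. The simulated arrays were independent, with no slide effect, and changes near the 1.5-fold limit were not simulated. The markers of periportal and pericentral hepatocytes are described here as values. The mean over 4 periportal markers was 5.39 to 5.47 in the D0 livers and 5.14 to 5.63 in the D3 livers. The mean over 7 pericentral markers was 3.62 to 4.00 and 3.57 to 4.17.

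**Figure D2:**
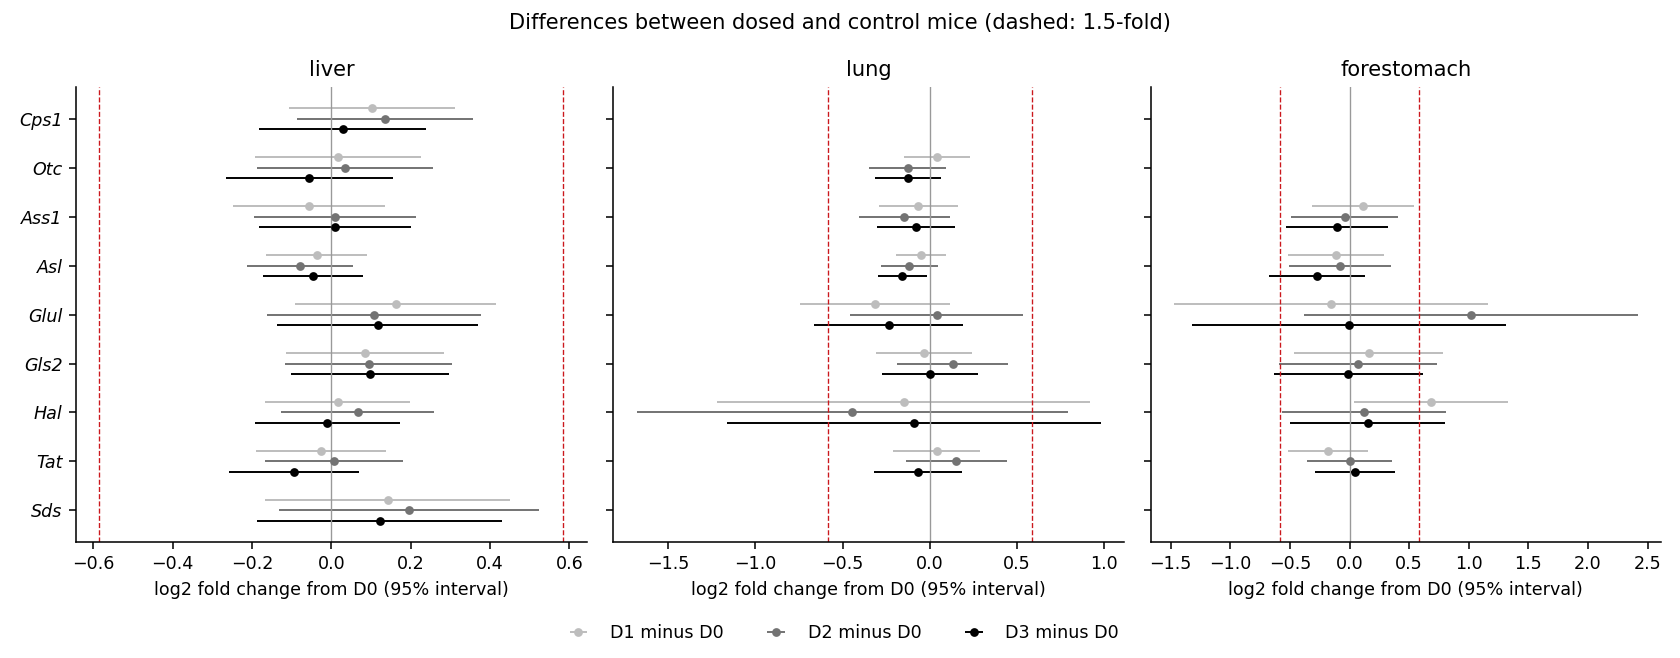
Log2 fold change of each tested member at D1, D2 and D3 against D0 in the 3 tissues, with 95% intervals from limma; the dashed red lines mark a 1.5-fold change. All intervals in liver lie inside the dashed lines, and those of Hal in lung and of Glul in forestomach are the widest of their tissues.

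In lung, 7 members were tested and none was called. Cps1 and Sds were above background on 0 of 18 lung arrays, Otc on 4, Tat on 14 and Hal on 17, and Ass1, Asl, Glul and Gls2 on 18. By limma, 0 of the 7 passed both limits at D1, D2 and D3, where 0%, 0% and 0.127% of the 31491 probes passed. With p limited to 0.05 and no adjustment, 0, 0 and 1 members were called, Asl at D3, where 5.88%, 6.12% and 16.1% of probes were called. Without D3 mice 17 and 19, 0 of all probes passed at D3. The linear trend gave 0 of 7 members, with 0.168% of probes called. For Otc the brighter of its 2 probes in lung was another than in liver, and the comparisons between tissues used the liver probe.

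Asl in lung was lower in every D3 mouse than in any D0 mouse, by a small amount. Its values were -1.09, -1.08, -1.09, -1.10 and -1.07 in D0 and -1.28, -1.23, -1.33, -1.25 and -1.12 in D3. The groups did not overlap, as for 2.61% of all probes at D3. At D1 and D2 no member in lung was without overlap, where 1.4% and 5.29% of probes were. The D3 difference of Asl was -0.16 (SE 0.07, adjusted p = 0.27 by limma). It was 0.07 with median centring, -0.09 with scanner loess, -0.09 with normexp and -0.52 with the array column as a covariate, and -0.16 without D3 mice 17 and 19. Median centring moved the median over all probes at D3 to 0.11.

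Hal was the most variable member in lung. It was -0.91, -0.71, 1.18, -0.57 and 1.99 in D0 and -0.59, 1.44, -0.36, 0.45 and -0.43 in D3. The highest arrays were D0 mouse 5, D3 mouse 17 and D0 mouse 3, so that the groups overlapped widely. The mean of the macrophage markers was 4.32 on the array of D0 mouse 5 and 2.73 to 3.51 on the other lung arrays, and its part in the Hal level was not tested. The D3 difference of Hal was -0.09 (SE 0.51). Within D3 the 2 highest values were those of mice 17 and 19, whose lungs had keratinocyte and muscle genes, and without both the difference was -0.65 (adjusted p = 0.72 by limma). Glul ranged from 2.81 to 4.11 in lung, Gls2 from -3.01 to -2.26 and Ass1 from -1.08 to -0.56, and their D3 differences were -0.24, 0.00 and -0.08.

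In forestomach, 6 members were tested and none was called. Cps1, Otc and Sds were above background on 0 of 19 arrays, Tat on 6, Gls2 on 9, Hal on 14, Asl on 18, and Ass1 and Glul on 19. By limma, 0 of the 6 passed both limits at D1, D2 and D3, where 0%, 0% and 0.00727% of the 27524 probes passed. With p limited to 0.05 and no adjustment, 1, 0 and 0 members were called, where 4.17%, 7.54% and 9.24% of probes were called. The call was Hal at D1. No member had dosed and control forestomachs that did not overlap, as 0.719%, 2.18% and 1.39% of probes had. The linear trend gave 0 of 6 members, with 0.04% of probes called.

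Hal in forestomach was -0.15, 0.71, 0.22, -0.10 and 0.86 in D0 and 1.59, 1.79, 0.03, 0.55 and 0.99 in the D1 mice 6 to 10. Both groups overlapped. The difference was 0.68 (SE 0.31, 95% interval 0.04 to 1.33, adjusted p = 1.00 by limma), and at D3 it was 0.15. Hal was well above background on 2 of 5 arrays in D0 and 4 of 5 in D1, so the control level lies near the floor.

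Glul in forestomach separated by the level of the glandular stomach genes. It was 1.99, 4.17, 4.30, 0.45 and 3.14 in D0, 1.90, 2.20, 4.01, 1.71 and 3.45 in D1, 3.79, 4.53, 3.27 and 3.73 in D2, and 2.64, 2.58, 2.16, 3.97 and 2.68 in D3. On the 10 arrays with glandular genes at 5.62 to 7.17, Glul was 3.14 to 4.53, and on the 9 arrays at 0.29 to 2.33 it was 0.45 to 2.68, with no overlap. All 4 D2 arrays were among the 10, with 3 of D0, 2 of D1 and 1 of D3. The same 10 arrays had higher medians of the pancreatic acinar genes (0.71 against -0.13) and of the hepatocyte genes (1.96 against 0.29), with overlapping ranges. Which of these gene lists Glul goes with was not tested. The D2 difference of Glul was 1.02 (SE 0.66, 95% interval -0.38 to 2.42, adjusted p = 0.82 by limma). With the glandular genes as a covariate it was 0.33, without D0 mouse 4 it was 0.43 and with the array column as a covariate 0.28. Within the 10 arrays, Glul and the glandular mean had a Pearson r of 0.61 (permutation p = 0.064, adjusted p = 0.17 over 8 relations) and a Spearman rho of 0.59 (permutation p = 0.080, adjusted p = 0.35). Within the 9 arrays r was 0.28 (permutation p = 0.46) and rho 0.20 (permutation p = 0.61). Leaving out the 2 arrays farthest from the median gave r = 0.45 and r = 0.48, and removing slide means gave 0.88 and 0.58. Of the 8 relations of Ass1 and Glul with the glandular and keratinocyte means within these array sets, 0 passed. That of Glul and the glandular mean within the 10 arrays passed with slide means removed (adjusted permutation p = 0.0036) and with scanner loess (r = 0.81, adjusted permutation p = 0.044).

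The remaining forestomach members varied less than Glul, whose SD within dose groups was 1.07 where the median over all probes was 0.28. Ass1 ranged from -1.34 to -0.11, Asl from -1.45 to -0.29 and Gls2 from -1.89 to -0.28. Their D3 differences were -0.11, -0.28 and -0.01, each with a 95% interval that includes 0. Gls2 was -1.89 to -0.87 on the 7 arrays of slide 1 and -1.08 to -0.28 on the 12 arrays of slides 2 and 3. The slide 1 arrays were brighter, with a 95th percentile of the Cy5 signal of 2412 to 6586 against 279 to 1158, and the part of brightness in the Gls2 level was not tested. Hepatocyte markers were also present in this tissue. The mean over the 6 hepatocyte genes was 0.68 to 3.18 on the 10 arrays with high glandular genes and 0.03 to 2.80 on the other 9, with Apoa1 up to 6.30 and Alb up to 4.00. Cps1, Otc and Sds stayed at background on all of them.

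**Figure D3:**
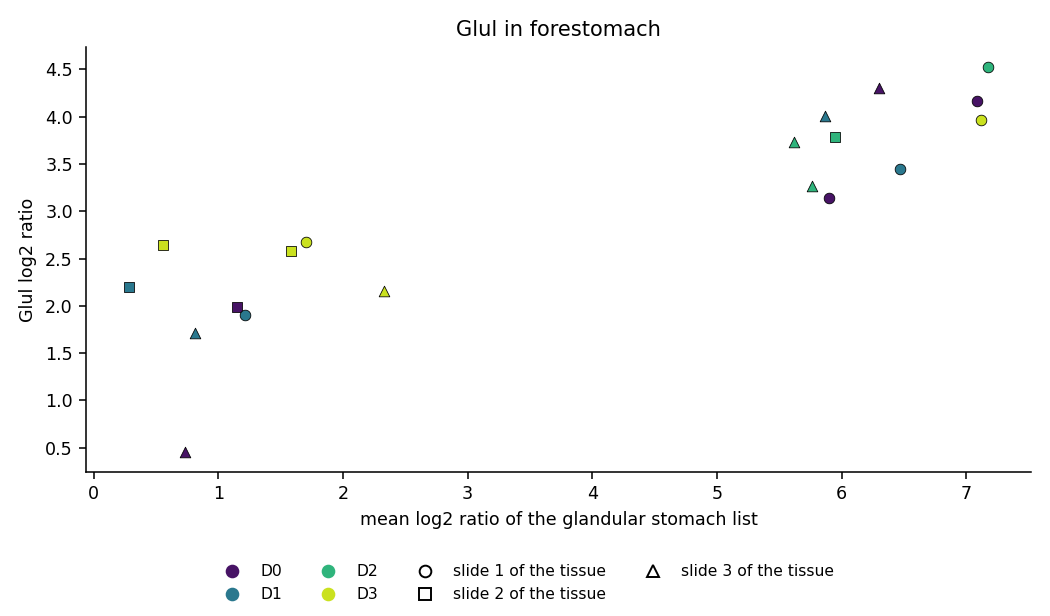
Glul in forestomach against the mean of the glandular stomach genes, both as log2 ratios, with 1 point per array coloured by dose group and shaped by slide. Glul is 3.14 or more on the 10 arrays with glandular genes at 5.62 to 7.17, and 2.68 or less on the other 9.

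The D3 effects of the 3 tissues were compared in 1 limma fit of all 56 arrays. Cps1 and Sds in lung, and Cps1, Otc and Sds in forestomach, have no level above background from which a dose effect could be read, and were left out of the counts. None of the 7 members that were above background on at least 3 arrays of both liver and lung differed past both limits, among them Otc, whose probe was so on 3 of 18 lung arrays and allows little to be read on dose there. None of 6 differed between liver and forestomach, and none of 6 between lung and forestomach, where 0%, 0.0773% and 0.703% of all probes tested did. Of the probes measured in both tissues, 0% had a higher and 0% a lower effect in liver than in lung, 0.0266% and 0.0711% in liver than in forestomach, and 0.243% and 0.616% in lung than in forestomach. With p limited to 0.05 and no adjustment, none of these members was called either, where 5.25%, 9.9% and 12.9% of all probes and 4.62%, 11.7% and 14.1% of those measured in both tissues were. The smallest p was that of Asl between liver and forestomach, where the effects differed by 0.23 (adjusted p = 0.74 by limma).

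The pathway lists showed the same absence of called genes with dose. At D3, 0 of 63 listed genes tested in liver, 0 of 48 in lung and 0 of 50 in forestomach passed both limits by limma. With p limited to 0.05 and no adjustment, 3, 4 and 6 listed genes were called, where 4.78%, 16.1% and 9.24% of all probes were. In liver the largest D3 changes were those of Foxo1, a fasting-activated transcription factor, at -0.26, of Hpd, which follows Tat in tyrosine breakdown, at -0.24 (adjusted p = 0.97) and of Bckdhb, a subunit of the branched-chain ketoacid dehydrogenase, at -0.23. In lung they were those of Gcat at 0.34 (adjusted p = 0.12, 5 of 5 mice above the D0 mean), Rhbg at 0.33 and Got1 at 0.33. Without D3 mice 17 and 19 these were 0.21, -0.14 and -0.22. In forestomach they were those of Hnf4a at -1.22, Bhmt at 1.03 and Sdsl at -0.93. High glandular genes were found on 1 D3 and 3 D0 forestomach arrays, and with the glandular genes as a covariate the values were -0.09, 1.19 and -0.66.

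Since the dose groups overlapped in liver, the variation among the 19 livers was described after the mean of each dose group had been removed. Of the 36 pairs of members, 0 had a Pearson r or a Spearman rho that passed an adjusted permutation p of 0.05. The strongest pair was Otc and Sds, with r = 0.64 (permutation p = 0.0034, adjusted p = 0.12) and rho = 0.42 (adjusted permutation p = 0.25), and without the 2 livers farthest from the median r was 0.30. The pair of Cps1 and Gls2 had r = 0.60 (adjusted permutation p = 0.14) and rho = 0.59 (adjusted permutation p = 0.155), with r = 0.45 without the 2 farthest livers. Glul and Hal had r = -0.48 (adjusted permutation p = 0.20) and rho = -0.50 (adjusted permutation p = 0.23).

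The members were also set against a list of 5 fasting genes (Pck1, G6pc, Igfbp1, Klf15 and Ppargc1a), which are known to be induced in the fasted liver, and against 7 clock output genes. Of the 18 relations, 1 passed on Pearson r, that of Sds and the fasting list, and 2 passed once slide means were removed as well. Sds and the fasting mean had r = 0.68 (permutation p = 0.0015, adjusted p = 0.0265) and rho = 0.56 (permutation p = 0.014, adjusted p = 0.18). The deviations were shuffled over all 19 livers with no allowance for the removed means. The permutation p values of the livers are therefore too small, and calls near the limit are not secure. Without the 2 livers farthest from the median, r was 0.45 (adjusted p = 0.40), so that the call rests on those livers. Within the 3 slides r was 0.60, 0.83 and 0.59. The fasting mean was lowest in D3 mouse 19 at 4.62, D0 mouse 2 at 4.71 and D3 mouse 18 at 4.88, and ran up to 5.68. Those 3 livers had Sds at 5.18, 5.18 and 5.70. Without D0 mouse 2, D1 mouse 7, D3 mouse 16 or D3 mouse 19, each left out in turn, 0 of the 18 relations passed. Of the clock relations, that of Tat was strongest, with r = -0.54 (adjusted permutation p = 0.16) and rho = -0.53 (adjusted permutation p = 0.18), and with slide means removed it was -0.37. Hal and the clock mean turned from r = -0.25 to 0.62 (adjusted permutation p = 0.042) with slide means removed, and r was 0.94, 0.89 and 0.04 within the 3 slides.

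**Figure D4:**
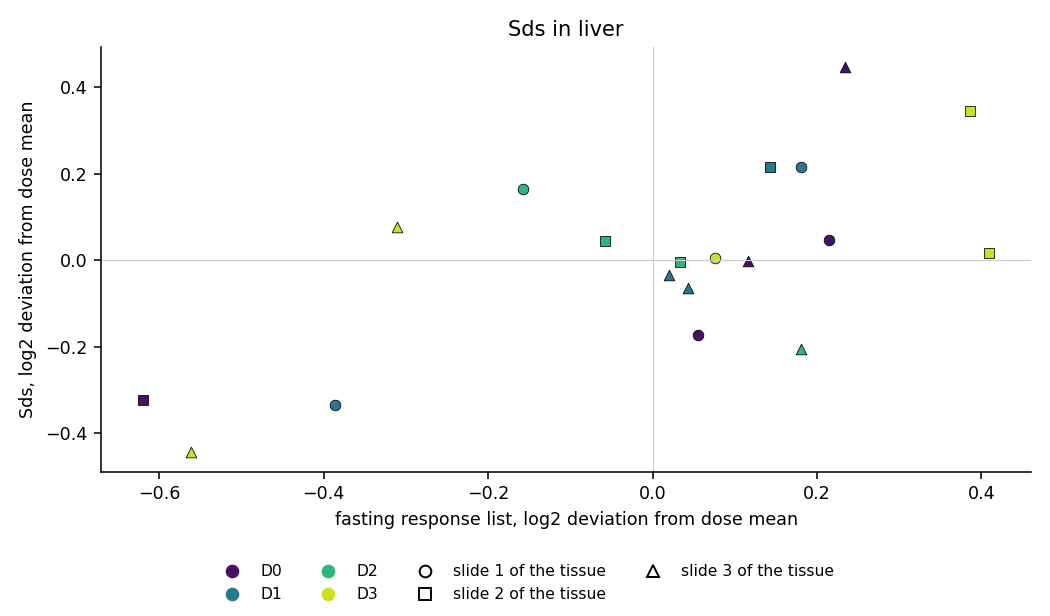
Sds against the mean of the 5 fasting genes in the 19 livers, as log2 ratios less their dose group means, with 1 point per liver coloured by dose group and shaped by slide. The Pearson r is 0.68, and the livers of D0 mouse 2, D1 mouse 7 and D3 mouse 19 lie at the lower left.

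The genes whose pattern was most like that of each member over the 19 livers, dose means removed, were found among 12624 named genes. They are given as a description, and all points share the liver arrays. The gene with the highest r is named for each. For Cps1 it was Orm2, an acute-phase protein, with r = 0.88. For Asl it was Gpx4, a glutathione peroxidase, with r = 0.88, and for Gls2 it was Cpn2 with 0.85. Hal was most like Cdo1, the enzyme that opens cysteine breakdown, with r = 0.84. For Tat it was Abtb2 with r = 0.85, and for Ass1 it was Emc9 with 0.80. The highest r was 0.82 for Otc (Thoc6), 0.82 for Glul (Trappc1) and 0.81 for Sds (Zbtb38). No member had a gene with r above 0.9.

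For 2 members a further probe was on the array. The Otc probe used in liver had a mean ratio of 8.72, and the other Otc probe, with 10 spots per array, had 6.35. Their D3 differences were -0.06 and -0.03. The Ass1 probes had liver means of 4.33 and 3.97, with D3 differences of 0.01 and -0.05.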

How the data were processed

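RNA of 56 tissue samples from 19 mice had been hybridised in 2 colours, with the tissue labelled in Cy5 and the common reference (universal mouse RNA) in Cy3, without dye swaps. The authors deposited log2 ratios after LOWESS normalization without background subtraction, and these are the main values. Per the file headers, Feature Extraction 10.7.3.1 wrote the scanner files, which hold spot intensity values and background and saturation flags, deposited as a score of 0 or 1, and name the mm9 build. The deposited ratios correlated with loess ratios of the scanner files with r = 0.977 to 0.998 across probes.

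Probes were named through RefSeq accessions, which named 26413 of 55681 probes. For each gene and tissue the probe with the highest mean Cy5 signal was used, and between tissues the probe with the highest mean over all tissues. Testing in a tissue required Cy5 well above background on at least 3 arrays. Groups were compared with limma 3.58.1 in R 4.3.3, in place of the MAANOVA of the study's methods, with Benjamini-Hochberg adjustment over all probes tested. A call needed an adjusted p of at most 0.05 and a fold change of at least 1.5. Correlations used permutation tests (100000 resamples, or exact where n was under 10, two-sided). Where dose or slide means had been removed, the shuffling made no allowance for this, so those p values are too small. The scripts were tested on simulated data. Alternatives were scanner loess, median centring, normexp with an offset of 50, no filter, array weights, slide and array column as covariates, and each sample left out.

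The labels describe separate mice, and each mouse gave all 3 tissues except D2 mouse 11, which has no lung array. Deviations of the same mouse in 2 tissues at D0 correlated with r from -0.17 to 0.28 over 22301 probes. The number of arrays limits the precision. The members and gene lists were chosen with earlier results of these data known. A member and some pathway genes are not reported here, and counts over the members and lists leave them out. Of the genes listed as markers, Scgb3a2, Gif and Cd68 had no named probe.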

Additional observations from a re-analysis of the deposited data

Results flagged for a closer look

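In 6 of 81 groups of 4 or 5 mice, the highest or lowest value of a member lay farther from the rest than Dixon's 95% critical value allows, and chance gives about 1 in 20 groups. Otc in the liver of D3 mouse 19 was 8.30, below the other D3 livers at 8.69 to 8.84. Tat in the liver of D0 mouse 2 was 6.26, below the other D0 livers at 6.42 to 6.48. These 2 mice also had the 2 lowest means of the fasting genes. Gls2 in the lung of D3 mouse 17 was -2.97, below the others at -2.58 to -2.51. Hal in the lung of D1 mouse 10 was 0.57, above the others at -0.23 to 0.00. Glul in the forestomach of D3 mouse 19 was 3.97, above the others at 2.16 to 2.68, and this was the 1 D3 forestomach with high glandular stomach genes. Its means of the pancreatic acinar and hepatocyte genes were 5.57 and 3.18. Tat in the forestomach of D2 mouse 12 was 0.59, above the others at 0.02 to 0.11.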

How the results depend on the processing

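The counts of members past both limits were 0 for every dose group and trend under each alternative run, and the smallest adjusted p for a dose effect was 0.76 in liver, 0.12 in lung and 0.34 in forestomach. Over the members measured in both tissues at D0, 6 were higher in liver than in lung and 3 than in forestomach with the mouse as a replicate block, under which Gls2 had an adjusted p of 0.00015 between lung and forestomach; the block changed no call. Leaving out each sample in turn also gave 6 and 3; the remaining members entered through liver, and their count says nothing of stability. Median centring gave 5 between liver and lung. Between lung and forestomach it gave 3 members, Ass1 at 2.34, Asl at 1.29 and Glul at 2.45. There the call of Gls2 was lost and its sign turned (0.15, adjusted p = 0.64 by limma). In this setting 16887 probes passed and the median over all probes was 1.19, against 11587 and 0.03 in the main values. For 66 dose effects, the sign turned for 25 under median centring and 18 with the array column as a covariate. The cause was not tested. The relations with the fasting and clock lists that passed numbered 0 without the 2 farthest livers, 2 with dose and slide means removed, and 0 to 1 when each liver was left out, and the pairs of members 0 to 1, with 1 without D1 mouse 6 or D2 mouse 13. In forestomach 1 relation passed with scanner loess and 1 with slide means removed, each that of Glul and the glandular genes. Clock genes and Hal had r = 0.62 with dose and slide means removed and -0.25 otherwise. The slide as a random block, the marker covariates and the members on at least 18 arrays were chosen after seeing the data. The all-probe count at D3 in forestomach was 2, and 137 with array weights, 105 with the glandular covariate and 13 with the slide block. In lung it was 40, and 0 with median centring or the array column, 14 with scanner loess or normexp, 15 with array weights and 20 with the slide block. In liver it was 0 at each dose, and 2, 19 and 23 at D1, D2 and D3 with the array column as a covariate. Spots not well above background, such as Cps1 and Sds outside liver and Otc in forestomach, allow no statement on dose.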
